A study of Mus musculus with 6 samples.

Results

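Elastic fibres give skin, lung and arteries their recoil. They are laid down as a core of crosslinked elastin on a scaffold of microfibrils, which are built from fibrillins and decorated with microfibril-associated glycoproteins. Fibulins bridge the elastin to the microfibrils, and emilins lie where the elastin meets the microfibrils. Fibroblasts and smooth muscle cells are the best known sources of these proteins, and some of them are also laid down without elastin.

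The expression of 10 genes for these structural proteins was compared between WT and GαqKO mouse embryonic fibroblasts (MEFs). The genes were those for elastin (Eln), the fibrillins (Fbn1 and Fbn2), the microfibril-associated glycoproteins (Mfap2 and Mfap5), the emilins (Emilin1 and Emilin2) and the fibulins (Fbln1, Fbln2 and Fbln5). They were picked by name, with earlier results of these data known, and each was found once, through its Ensembl identifier, among the 56953 genes of the expression table. All 10 had reads in at least 1 library, and 7 passed the filter on low values, which kept the 14096 genes that reached 10 normalized counts in 3 or more of the libraries. Eln, Mfap2 and Mfap5 did not pass it and were not tested. Fbn2 passed it through the GαqKO libraries alone, so once tested it was bound to differ.

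The study asked how the loss of Gαq, a G protein subunit that couples cell surface receptors to phospholipase C, alters fibroblasts and the matrix around oral tumours. Its RNA sequencing covered 3 libraries of WT MEFs and 3 of GαqKO MEFs, grown unstimulated in serum-containing medium. Per the methods of the study, the knockout line lacks both Gαq and its close relative Gα11, and both lines were obtained from another laboratory. The 3 replicates of each genotype are named biological, and nothing in the sources used here says that they came from separate embryos, so the p-values measure the spread between cultures of 1 line against cultures of another.

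The deposited values are normalized counts, that is, gene counts divided by 1 size factor per library, and they summed to between 11392429 and 11483486 per library. Gnaq, which encodes Gαq, stood at 1691 ± 48.5 normalized counts in WT and 1926 ± 36.0 in the GαqKO libraries (SD, n = 3 each). Gna11, which encodes Gα11, stood at 2148 ± 29.0 and 451.6 ± 28.7. Because the Gnaq transcript was not lower, the second group is called here the libraries labelled GαqKO. The study reports that its GαqKO MEFs lacked Gαq protein, by Western blot and by immunofluorescence. Transcript counts do not measure protein. The Y-linked gene Ddx3y stood at 1197 ± 52.3 in WT and at 0 in all 3 libraries labelled GαqKO, and Xist was at 0 in all 6, so the lines differ beyond the targeted genes, and genotype and other differences between the lines cannot be told apart. All 9 fibroblast markers examined were tested and differed, 4 with a higher and 5 with a lower level in the libraries labelled GαqKO. Such calls were common, since by the same criterion 31.8% of all tested genes rose and 34.1% fell. One of the 9, Thy1, passed the filter on low values only through the libraries labelled GαqKO, so its call was fixed in advance. The summed level of the 9 markers ran from 84376 to 90131 normalized counts in WT and from 61317 to 64522 in the other group. Of these markers, Thy1 was near 0 in WT (0.70 ± 1.21) and Pdgfra was low there (19.6 ± 2.23), whereas Col1a1, Col1a2 and Vim were abundant in all 6 libraries.

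**Figure D1:**
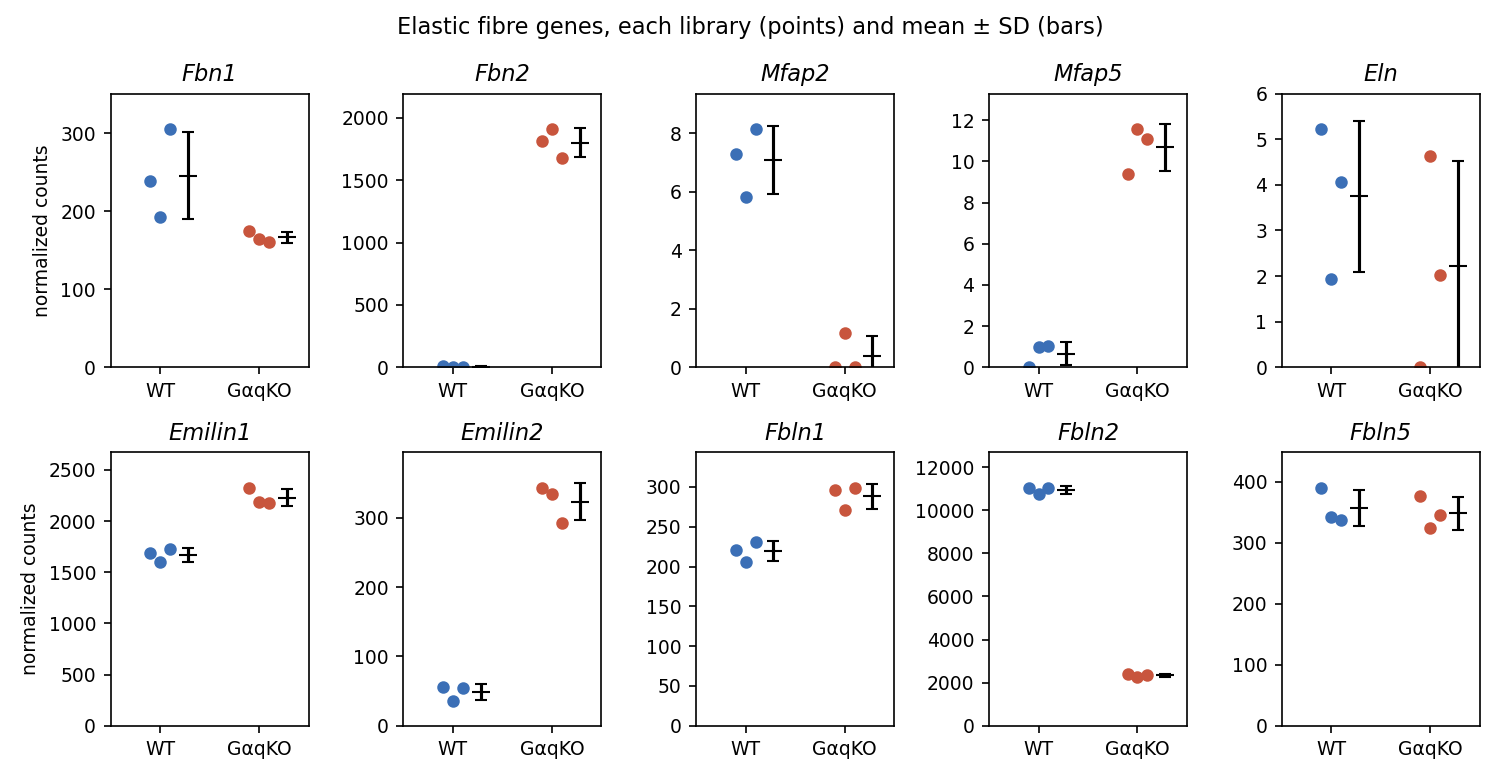
Normalized counts of the 10 elastic fibre genes (y axis, each panel with its own scale from 0) in the WT and GαqKO libraries. Points are libraries and bars are mean ± SD (n = 3). Fbn2, Mfap5 and Emilin2 sit near the bottom of their WT column and rise in the other, Fbln2 and Mfap2 do the reverse, and Eln and Fbln5 overlap.

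Across the tested genes of this group, 4 were higher in the libraries labelled GαqKO (Fbn2, Emilin2, Emilin1 and Fbln1), 2 were lower (Fbln2 and Fbn1), and Fbln5 was not called. In the same test 31.8% of all tested genes were higher and 34.1% were lower at an adjusted p under 0.05 (limma with Benjamini-Hochberg adjustment over all 14096). Past a log2 fold change of 1 there were 2 genes higher (Fbn2 and Emilin2) and 1 lower (Fbln2), against a background of 10.2% and 10.5% of tested genes. Both counts of higher genes include Fbn2, which was bound to differ once tested. The 3 libraries of one group did not overlap with the 3 of the other for 6 of the 7 genes, and this held for 69.6% of all tested genes. The median log2 fold change of the 7 was 0.40, beside -0.01 for all tested genes. The 6 genes without overlap and this median also include Fbn2, whose groups were bound not to overlap.

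**Figure D2:**
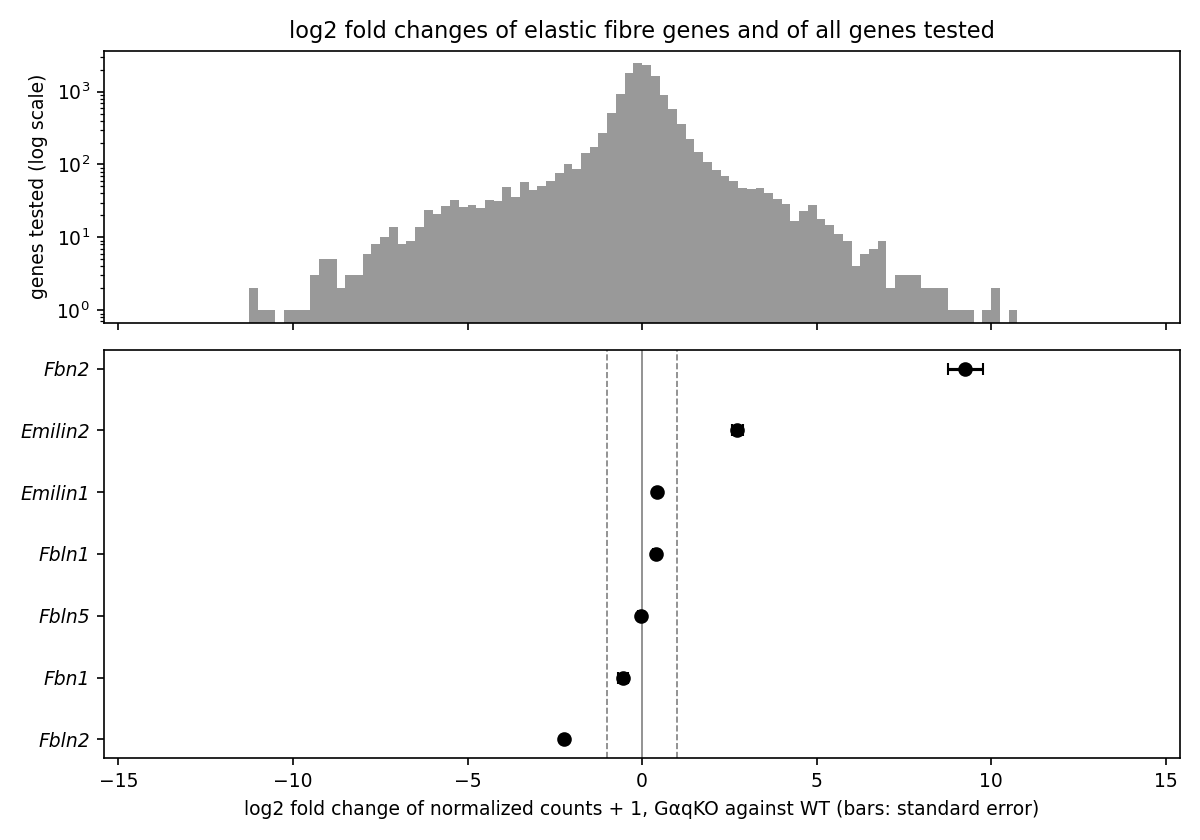
Log2 fold changes on the log2(normalized count + 1) scale, libraries labelled GαqKO against WT (x axis). The upper panel is a histogram of the 14096 tested genes with a log y axis. The lower panel gives the 7 tested elastic fibre genes with their standard errors, and dashed lines mark a log2 fold change of 1 in each direction. Fbn2 lies at 9.26, in the right tail of the histogram, and Fbln2 at -2.23.

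Fibrillins are large, calcium-binding glycoproteins that polymerise end to end into microfibrils, and they also hold TGF-β and BMP growth factors in the matrix. Fbn1 (ENSMUSG00000027204.14, chromosome 2, 125142514 to 125349913 of GRCm39, minus strand) encodes fibrillin-1, the main fibrillin of adult tissue and the gene mutated in Marfan syndrome. It had 239.1, 193.3 and 305.4 normalized counts in WT replicates 1 to 3, and 174.7, 164.2 and 161.1 in the libraries labelled GαqKO. Every WT library was above every library of the other group, and WT replicate 3 stood highest. The gene was lower by a modest amount, with a log2 fold change of -0.53 (SE 0.14, adjusted p = 0.00458, limma). Without WT replicate 3 the value was -0.37 (adjusted p = 0.0235, limma). That library was the highest WT library for 3 of the 5 matrix partners listed further on (Fn1, Vcan and Hspg2), the lowest for Bgn and in the middle for Dcn. An antisense gene, Gm9913, overlaps 20.1% of the exon bases of Fbn1 and was listed at 0 in all 6 libraries.

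Fbn2 (ENSMUSG00000024598.10, chromosome 18, 58141695 to 58343645, minus strand) encodes fibrillin-2, which is made mostly before birth and is mutated in congenital contractural arachnodactyly. Its normalized counts were 7.3, 0.0 and 2.0 in WT and 1816.1, 1909.0 and 1675.7 in the libraries labelled GαqKO. The gene was close to undetected in WT and abundant throughout the other group. The 3 WT libraries together held 9 reads (exact Poisson 95% interval 4.12 to 17.1). Over the 5 libraries whose reads could be recovered, the level was 613 times that of WT (exact 95% interval 323 to 1342, counting error only). Fbn2 would not have passed the filter on its WT libraries, so no p is given for it. The log2 fold change was 9.26 (SE 0.51), the 5th largest rise of the 14096 genes. Its exact size depended on the constant added before taking logs, since the value was 7.90 with 5 added and 9.71 with 0.5 added. It also depended on single WT libraries, since WT replicate 1 held 7 of the 9 WT reads: the value was 10.01 without that library and 8.48 without WT replicate 2.

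The balance of the fibrillins was examined as the log2 ratio of Fbn2 to Fbn1 within each library. The ratio was -4.85, -7.60 and -6.66 in WT and 3.37, 3.53 and 3.37 in the libraries labelled GαqKO. Fbn1 had the higher count in all 3 WT libraries and Fbn2 in all 3 others. The mean ratio differed by 9.79. Since Fbn2 passed the filter only through the libraries labelled GαqKO, this difference was bound to be large, and no p is given for it. For the 4 pairs of paralogs, an exact two-sided permutation test of 3 libraries against 3 cannot give a p under 0.1, also after adjustment over the 4. Per kilobase of exon, Fbn2 made up 0.76% ± 0.98 of the fibrillin level in WT and 87.0% ± 0.72 in the other group (SD, n = 3 each).

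Microfibril-associated glycoproteins are small proteins that bind fibrillins along the microfibril. Mfap2 (ENSMUSG00000060572.18, chromosome 4, 140737729 to 140743295, plus strand) encodes MAGP-1, and its normalized counts were 7.3, 5.8 and 8.1 in WT and 0.0, 1.2 and 0.0 in the libraries labelled GαqKO. Mfap5 (ENSMUSG00000030116.15, chromosome 6, 122470878 to 122508875, plus strand) encodes MAGP-2, and its values were 0.0, 1.0 and 1.0 in WT and 9.4, 11.6 and 11.1 in the others. The groups did not overlap for either gene, and each gene was low even in the group where it was higher. Over the 5 libraries with recovered reads, Mfap2 had 21 reads in WT and 1 in the other group, so WT was 13.6 times higher (exact 95% interval 2.19 to 564, counting error only). Mfap5 had 2 reads in WT and 20 in the other group, 15.4 times the WT level (3.74 to 136). In the limma fit without a filter on low values, the log2 fold change was -2.64 for Mfap2 (adjusted p = 0.00117) and 2.88 for Mfap5 (adjusted p = 0.000428). DESeq2 on the 5 libraries gave adjusted p = 0.0764 for Mfap2 and 0.0217 for Mfap5. The log2 ratio of Mfap5 to Mfap2 was -2.34 ± 0.65 in WT and 3.17 ± 0.56 in the other group, a difference of 5.51 (exact permutation test, two-sided, p = 0.1, the smallest value possible).

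The elastin transcript was barely detected. Eln (ENSMUSG00000029675.13, chromosome 5, 134731445 to 134776322, minus strand) encodes tropoelastin, the soluble monomer that coacervates and is crosslinked into the elastic core. It had 5.2, 1.9 and 4.1 normalized counts in WT and 0.0, 4.6 and 2.0 in the libraries labelled GαqKO. The groups overlapped, and in the 3 WT libraries the gene took 11 of 33978664 recovered reads. Over the 5 libraries the level relative to WT was 0.56 (exact 95% interval 0.13 to 1.89, counting error only), so at this depth a difference was not detectable. Of 6 markers of smooth muscle, the other main elastin source, Myh11 (1.38 ± 1.6 in WT and 4.33 ± 3.3 in the other group), Cnn1 (4.39 ± 0.72 and 3.29 ± 1.9) and Des (13.0 ± 4.7 and 12.9 ± 2.9) were low in both groups. Smtn was abundant (877 ± 53.1 and 942 ± 29.1) and not called, and Acta2, which fibroblasts express as well, was at 714.7 ± 79.6 and 266.4 ± 18.8 (log2 fold change -1.42, adjusted p = 7.9e-09, limma). Tagln stood at 43.1 ± 10.8 and 6.64 ± 2.3, with 66.7% of its exon bases in exons of another gene, and passed the filter through WT alone.

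Emilins are trimeric glycoproteins with a C1q-like end, and emilin-1 is found at the border of elastin and microfibrils and restrains TGF-β processing. Emilin1 (ENSMUSG00000029163.10, chromosome 5, 31070717 to 31078622, plus strand) had 1690.5, 1597.0 and 1727.3 normalized counts in WT and 2326.0, 2183.0 and 2179.2 in the libraries labelled GαqKO. The groups were well apart, although the rise was small, with a log2 fold change of 0.42 (SE 0.048, adjusted p = 4.48e-06, limma). Emilin2 (ENSMUSG00000024053.12, chromosome 17, 71559167 to 71618973, minus strand) rose much further, from 55.3, 35.9 and 55.0 normalized counts to 343.7, 334.2 and 293.0. Its lowest value in the libraries labelled GαqKO was above its highest in WT by a wide margin, and its log2 fold change was 2.73 (SE 0.17, adjusted p = 6.11e-09, limma). The mean level was 6.64 times that of WT. Of the exon bases of Emilin2, 23.0% lie in the span of an antisense gene, Gm64555, which has no values here. The log2 ratio of Emilin2 to Emilin1 moved from -5.10 ± 0.29 to -2.78 ± 0.096, a difference of 2.31 (exact permutation test, two-sided, p = 0.1, the smallest value possible). Emilin1 nevertheless stayed the more abundant emilin in all 6 libraries, with Emilin2 at 2.60% ± 0.50 of the emilin level per kilobase in WT and 11.8% ± 0.69 in the other group.

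The bases just upstream of Emilin2, the emilin gene that rose further, are shown from GRCm39 beside those of Fbn1, which fell. Each is the run of 250 bases that ends at the base before the GENCODE gene start, printed 5′ to 3′ on the strand of the gene, and capitals mark a searched motif. The windows are chr17:71618974-71619223 on the minus strand for Emilin2, and chr2:125349914-125350163 on the minus strand for Fbn1.
Emilin2: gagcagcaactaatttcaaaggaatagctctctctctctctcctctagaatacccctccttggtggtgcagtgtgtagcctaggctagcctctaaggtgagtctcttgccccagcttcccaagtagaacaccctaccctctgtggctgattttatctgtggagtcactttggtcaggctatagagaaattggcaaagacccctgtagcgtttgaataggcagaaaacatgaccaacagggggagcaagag
Fbn1: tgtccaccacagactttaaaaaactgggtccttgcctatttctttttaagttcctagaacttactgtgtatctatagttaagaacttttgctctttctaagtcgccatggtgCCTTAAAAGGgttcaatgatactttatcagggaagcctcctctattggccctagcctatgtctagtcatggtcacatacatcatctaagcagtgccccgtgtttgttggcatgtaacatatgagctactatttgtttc
In these windows 7 motifs were searched on both strands. They were the TATA box (TATAAA), the GC box (GGGCGG), the AP-1 motif (TGANTCA), the SMAD motif (CAGACA), the TEAD motif (GGAATG), the E-box (CACGTG) and the CArG box bound by SRF. The Emilin2 window has 1 CpG and 49.2% GC, and none of these letters. The Fbn1 window holds a CArG box 138 to 129 bases before the gene start, which 1.41% of 21757 protein-coding gene starts do. A match is only a match of letters, and binding was not measured.

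Fibulins are calcium-binding glycoproteins of basement membranes and elastic fibres. The most abundant gene of the whole group per kilobase in WT was Fbln2 (ENSMUSG00000064080.13, chromosome 6, 91189437 to 91249522, plus strand), which encodes fibulin-2, a binder of fibrillin, fibronectin and versican. It had 11029.8, 10747.8 and 11047.7 normalized counts in WT and 2392.6, 2247.7 and 2347.4 in the libraries labelled GαqKO. The replicates of each group lay close together and far from the other group. The level in the libraries labelled GαqKO was 0.213 times that of WT, with a log2 fold change of -2.23 (SE 0.041, adjusted p = 3.44e-14, limma), the 727th largest fall of all tested genes. Leaving out any 1 library kept it between -2.25 and -2.21.

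Fbln1 (ENSMUSG00000006369.15, chromosome 15, 85090150 to 85170737, plus strand) encodes fibulin-1, which is found within the elastin core and in basement membranes, and it went the other way. Its normalized counts were 220.3, 205.9 and 231.1 in WT and 295.8, 270.6 and 299.1 in the libraries labelled GαqKO. The groups did not overlap and the rise was small, with a log2 fold change of 0.40 (SE 0.092, adjusted p = 0.00182, limma). In DESeq2 on the 5 libraries it was 0.38 and missed the threshold (adjusted p = 0.0581). Fbln5 (ENSMUSG00000021186.10, chromosome 12, 101712556 to 101785429, minus strand) encodes fibulin-5, which binds tropoelastin and lysyl oxidase-like 1 and is needed for elastic fibre assembly in mice. It had 390.5, 342.9 and 337.9 normalized counts in WT and 377.5, 323.7 and 345.4 in the other group. The groups overlapped, and the log2 fold change was -0.03 (95% interval -0.22 to 0.16, adjusted p = 0.754, limma). The log2 ratio of Fbln2 to Fbln1 was 5.64 ± 0.063 in WT and 3.01 ± 0.041 in the libraries labelled GαqKO, a difference of -2.63 (exact permutation test, two-sided, p = 0.1, the smallest value possible).

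**Figure D3:**
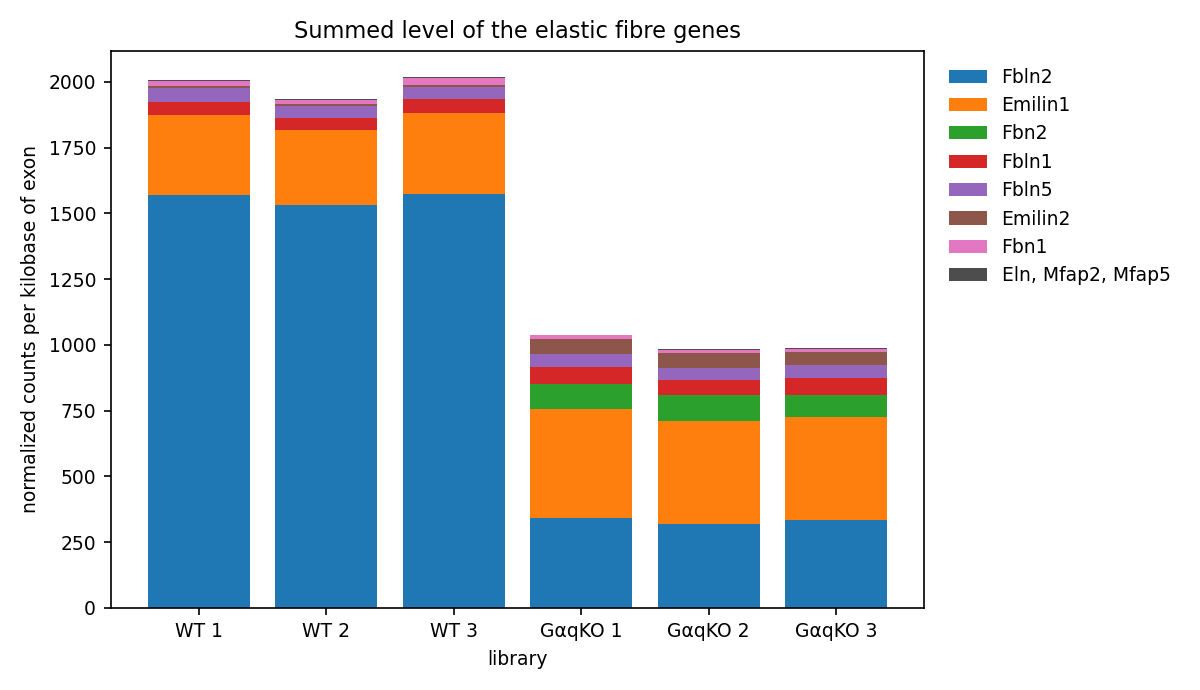
Summed level of the 10 elastic fibre genes in each library, in normalized counts per kilobase of exon (y axis from 0), with each gene's part stacked in colour. The WT bars reach 1933 to 2018 and consist mostly of Fbln2, while the other bars reach 984 to 1039 and are led by Emilin1 and Fbln2, with a visible part for Fbn2.

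Levels were compared between genes only after division by exon length. In WT the order of levels per kilobase was Fbln2 (1559 ± 24.0), Emilin1 (299.5 ± 12), Fbln5 (49.0 ± 4.0), Fbln1 (47.8 ± 2.8), Fbn1 (20.3 ± 4.6) and Emilin2 (8.05 ± 1.8), with Mfap2, Eln, Fbn2 and Mfap5 under 2.4 in every library. Fbln5 and Fbln1 overlapped in this order, as did Eln with Fbn2 and Fbn2 with Mfap5. In the libraries labelled GαqKO, Emilin1 came first (399.5 ± 15.0), followed by Fbln2 (331.8 ± 10.6), Fbn2 (91.9 ± 6.0), Fbln1 (63.0 ± 3.4), Emilin2 (53.4 ± 4.4), Fbln5 (47.8 ± 3.7) and Fbn1 (13.7 ± 0.59). There Emilin2 overlapped with Fbln5, and Eln with Mfap2. Fbn2 thus went from the 9th to the 3rd place, and Fbn1 was the lowest of the 7 tested genes in the second group.

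The summed level per kilobase was 1986 ± 46.1 in WT and 1003 ± 31.3 in the libraries labelled GαqKO, a ratio of 0.505 ± 0.0196. Fbln2 alone made up 78.5% ± 0.63 of the sum in WT and 33.1% ± 0.71 in the other group. Without Fbln2, the other 9 genes summed to 427.4 ± 22.2 and 671.2 ± 24.1, a ratio of 1.57 in the opposite direction. Emilin1 rose from 15.1% to 39.8% of the full sum and Fbn2 from 0.01% to 9.16%. In bulk RNA, fewer cells of a type and less RNA per cell cannot be told apart. The values are scaled per library, so they are levels relative to the other RNA of each culture, not amounts.

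Other genes that assemble, crosslink, cut or bind elastic fibres were taken from 8 lists of 54 genes in all. Of these, 40 were tested, 5 were not called, 17 were higher against WT and 18 were lower. Past a log2 fold change of 1 there were 13 higher and 6 lower. The median log2 fold change was -0.07, and the groups did not overlap for 36 of the 40 genes. These shares, and the counts of each list below, are read against the background percentages given above. At an adjusted p under 0.05 (limma) those were 31.8% of all tested genes higher and 34.1% lower, so most tested genes were called. Of the 40 genes, 5 passed the filter on low values through 1 group alone (Efemp1, Ltbp2, Thsd4, Mmp9 and Itga8, named after their values were seen).

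**Figure D4:**
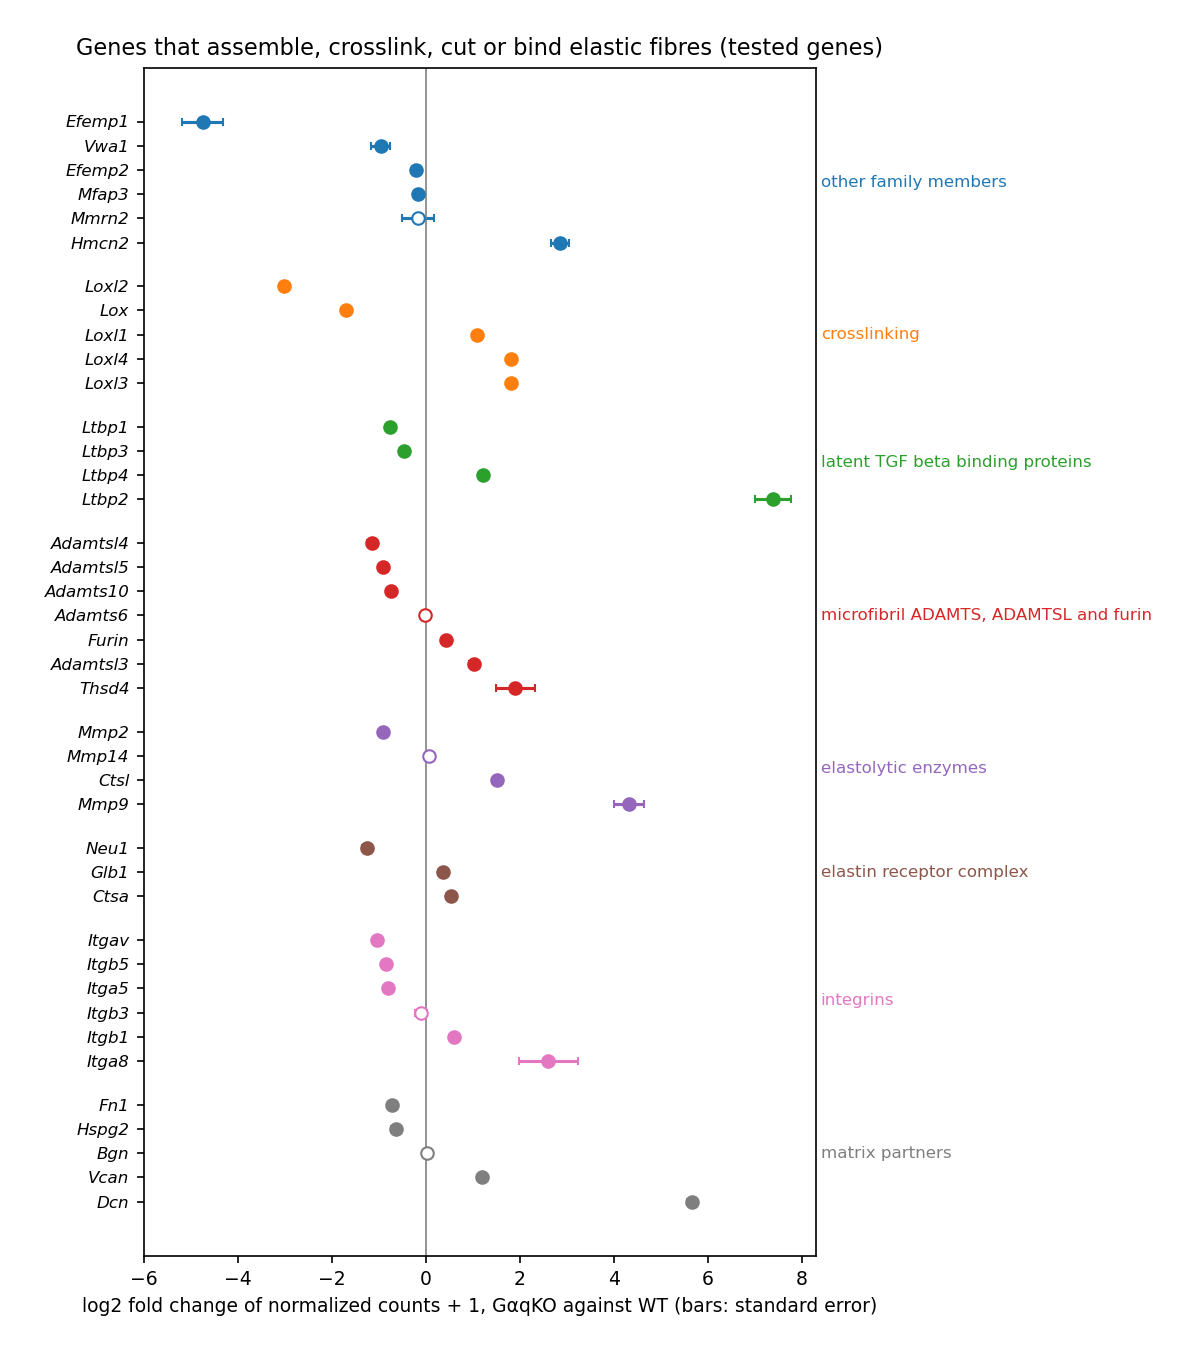
Log2 fold changes on the log2(normalized count + 1) scale (x axis) with standard errors for the 40 tested genes of the 8 elastic fibre lists, coloured by list. Filled points passed an adjusted p under 0.05 and open points did not. The crosslinking and LTBP lists each hold genes far on both sides of 0.

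All 5 lysyl oxidases, the copper enzymes that crosslink elastin and collagen, were called, 3 higher and 2 lower. The largest change was that of Loxl2, whose normalized counts were 3586, 3108 and 3399 in WT and 450.7, 403.5 and 381.7 in the libraries labelled GαqKO (log2 fold change -3.03, SE 0.069, adjusted p = 3.19e-13, limma). Lox, the founding member of the family, fell from 8395 ± 166 to 2598 ± 124. In the other direction, Loxl3 rose from 196.7 ± 10.3 to 692.7 ± 19.2, Loxl4 from 255.9 ± 7.41 to 898.4 ± 17.5, and Loxl1, which is tied to elastin in mice, from 898.1 ± 9.22 to 1902 ± 60.7. The 2 most abundant crosslinking genes of WT by normalized counts thus fell and the 3 others rose. Exons of Loxl1 lie wholly within the span of another gene, while 4% of its exon bases overlap exons of other genes. That exon overlap is 22.7% for Loxl2 and 25.3% for Loxl3, so the counts of these genes are less certain. Lox and Loxl1 are named outside the rule for named genes, after their values were seen.

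Latent TGF-β binding proteins share the domain plan of fibrillins and bind to microfibrils. All 4 were called, 2 of them higher and 2 lower. Ltbp2, which does not hold latent TGF-β and binds fibrillin-1 and fibulin-5, had 15.7, 2.9 and 12.2 normalized counts in WT and 1625, 1575 and 1582 in the libraries labelled GαqKO (log2 fold change 7.39, SE 0.38). It would not have passed the filter on its WT libraries, so no p is given for it. Ltbp4, which guides elastin deposition, rose from 362.5 ± 9.97 to 838.9 ± 11.5, and Ltbp1, the main carrier of latent TGF-β, fell from 4295 ± 99.5 to 2520 ± 46.4.

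Of the 9 ADAMTS and ADAMTS-like proteins and furin that process or stabilise microfibrils, 7 were tested, 3 higher and 3 lower. Adamtsl3 rose from 167.6 ± 6.78 to 339.8 ± 33.0 normalized counts. Adamtsl4, which promotes fibrillin-1 deposition, fell from 312.1 ± 12.9 to 140.5 ± 10.5, and Adamtsl5, a fibrillin binder, from 711.2 ± 35.3 to 377.4 ± 17.0. Of the 8 enzymes that can degrade elastin or activate those that do, 4 were tested, 2 higher and 1 lower. Mmp9, a gelatinase with elastase activity, was at 5.2, 12.6 and 18.3 normalized counts in WT and 245.1, 245.1 and 214.5 in the other group (log2 fold change 4.32, SE 0.32), and it too would not have passed the filter on its WT libraries. The lysosomal protease gene Ctsl rose from 795.2 ± 79.5 to 2251 ± 91.0, and Mmp2, the other gelatinase, fell from 1136 ± 32.5 to 606.5 ± 22.6. Exons of other genes overlap 26.1% of the exon bases of Ctsl and 24.3% of those of Mmp2.

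In the elastin receptor complex, which binds elastin fragments, all 3 genes were called. The sialidase gene Neu1 fell from 354.0 ± 18.1 to 147.1 ± 12.5, and the genes of its partners Ctsa (755.2 ± 63.9 to 1096 ± 39.4) and Glb1 (563.9 ± 30.9 to 729.1 ± 39.9) rose. Exons of Neu1 lie wholly within the span of another gene, while 7.9% of its exon bases overlap exons of other genes. That exon overlap is 36.9% for Ctsa, so the counts of these genes are less certain. Among 9 integrin subunits that bind fibrillins, fibulins or emilins, 6 were tested, 2 higher and 3 lower. Itgav fell from 2868 ± 39.9 to 1394 ± 22.9, Itgb5 from 1130 ± 23.8 to 624.2 ± 32.4 and Itga5 from 1509 ± 67.5 to 865.5 ± 34.3. Itgb1, the most abundant of them by normalized counts and named after its values were seen, rose from 8254 ± 209 to 12548 ± 174 (log2 fold change 0.60, adjusted p = 1.04e-08, limma).

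All 5 matrix partners were tested, 2 higher and 2 lower. Dcn, which encodes the small proteoglycan decorin, rose from 32.1 ± 3.0 to 1663 ± 53.8 normalized counts (log2 fold change 5.66, SE 0.098, adjusted p = 2.14e-14, limma). Vcan rose from 2773 ± 352 to 6348 ± 755, and Fn1, which encodes the fibronectin on which fibrillin assembly depends in culture, fell from 11826 ± 1311 to 7117 ± 433. Of 11 other members of the fibulin, MFAP, emilin and related families, 6 were tested, 1 higher and 4 lower. Efemp2, which encodes fibulin-4, fell slightly, from 1055 ± 35.3 to 912.8 ± 30.8, and Mfap3 from 1410 ± 60.9 to 1244 ± 32.8. Emilin3 was listed at 0 in all 6 libraries. After the values were seen, 2 further genes were picked out because they moved most. Efemp1, which encodes fibulin-3, had 134.7, 117.5 and 126.2 normalized counts in WT and 4.7, 8.1 and 1.0 in the other group. Hmcn2, a hemicentin gene, had 16.7, 18.5 and 22.4 in WT and 145.5, 144.5 and 141.0 in the other group.

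Markers of other cell types were counted beside these genes. Epithelial markers moved with the groups, with a summed level of 255.5 to 283.7 normalized counts in WT and 9.06 to 20.8 in the libraries labelled GαqKO. Most of that was Cdh1, at 238.2 ± 3.1 and 7.96 ± 2.7, the only 1 of 4 that was tested, which passed the filter through WT alone. Krt8 (17.3 ± 11.7 and 0.72 ± 0.63) and Krt18 (14.5 ± 4.9 and 1.0 ± 0.95) also did not overlap between the groups, while Epcam did (3.05 ± 2.1 and 4.64 ± 3.0). Smooth muscle markers summed to 1585 to 1751 in WT and 1200 to 1276 in the other group (6 markers, 2 of 4 tested lower), and macrophage markers to 104 to 115 and 69.5 to 103 (4 markers, 1 of 2 tested lower). Chondrocyte markers summed to 1517 to 1720 and 2430 to 2498, nearly all of it Sox9 (1 of 5 tested, and higher). The other chondrocyte markers were near 0, with Col2a1 at 5.38 ± 0.39 and 1.61 ± 1.5, Comp at 5.74 ± 1.6 and 1.80 ± 1.4, Matn1 at 3.08 ± 2.8 and 0, and Acan at 0 in all libraries but 1. Endothelial markers summed to 12.6 to 23.4 and 15.0 to 25.4 (5 markers, 1 tested and not called). The part of these other markers in the differences between the elastic fibre genes was not tested.

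Whether the chromosomal surroundings of these genes moved with them was described without a test, from the tested genes that start within 500 kb. Near Fbn2 there were 2, Isoc1 at a log2 fold change of 0.04 and Slc12a2 at 0.79, and no neighbour approached its 9.26. Near Fbln2 there were 9, with a median of -0.004 and a range of -1.63 to 0.97. Near Emilin2 there were 13, with a median of 0.08, and 2 of them were higher past a log2 fold change of 1, Trmt61b at 1.46 and Clip4 at 6.12. Clip4 starts 456 kb upstream, and the 5 tested genes that start between it and Emilin2 were Togaram2 at 0.39, Wdr43 at 0.08, Trmt61b, Ndc80 at -0.005 and Smchd1 at -0.29. Near Emilin1, Fbln1, Fbn1 and Fbln5 there were 26, 9, 9 and 6 tested neighbours, with medians of 0.09, 0.45, 0.22 and -0.16. In the same order, the neighbours ranged from -3.91 to 4.23, -4.86 to 0.93, -0.73 to 1.14 and -4.04 to 0.04. The median near Fbln1 was close to the gene's own 0.40. The medians of all tested genes of the chromosomes of these tested members lay between -0.08 and 0.16. Of the members that were not tested, Mfap2 had 15 tested neighbours, with a median of -0.62 and a range of -2.89 to 1.17. The median of its chromosome was -0.35. Eln had 18 neighbours with a median of 0.08, and Mfap5 had 9 with a median of 0.30. Their chromosomes had medians of 0.02 and 0.06.

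**Figure D5:**
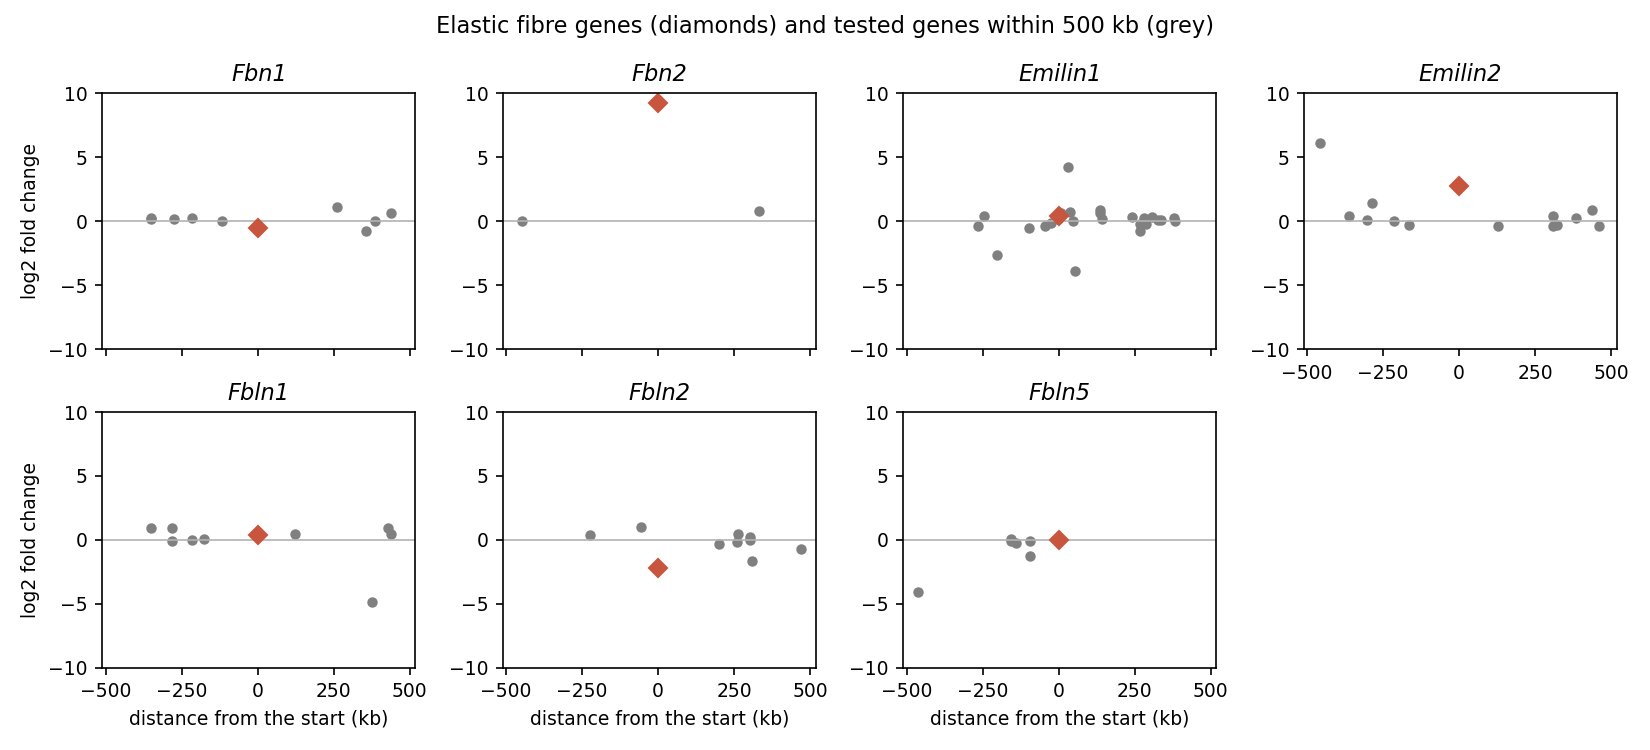
Log2 fold changes (y axis, log2(normalized count + 1) scale, GαqKO against WT) of the 7 tested elastic fibre genes (red diamonds at 0) and of tested genes starting within 500 kb (grey points). The x axis is the distance from the start of the elastic fibre gene in kilobases, positive in its direction of transcription. Fbn2 lies far above its only 2 tested neighbours. Fbln2 lies below all 9 of its own, of which the lowest is at -1.63, and near Emilin2 a single distant gene lies higher.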

How the data were processed

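Bulk RNA sequencing of MEFs was analysed in 6 libraries, 3 of WT and 3 labelled GαqKO, with groups taken from the genotype label. The authors prepared stranded poly-A libraries, aligned the paired reads to GRCm39 with Rbowtie2, counted them with featureCounts on GENCODE release M32 and used DESeq2. Tool versions and the strand setting of the counting are not given in the sources used here, so a gene and its antisense partner may not be separated. The deposited table holds a normalized signal: each gene count over the size factor of its library.

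Symbols, coordinates and exon lengths came from GENCODE release M39, which matched 56310 of 56953 identifiers (98.9%). Genes that reached 10 normalized counts in 3 or more libraries were tested with limma 3.58.1 in R 4.3.3, on log2 of the normalized count plus 1, using an intensity trend for the prior variance. P-values were adjusted by Benjamini-Hochberg over all tested genes. Fold changes on this scale understate changes of low genes. In all 6 libraries the nonzero values were whole multiples of 1 step (tolerance 0.01), and in 5 the reads were recovered, 9853000 to 12229175 per library. These recovered reads were tested with edgeR 4.0.16 and DESeq2 1.42.0. GαqKO replicate 3 was left out of those count tests, because its step is so close to 1 that its reads were not accepted as recovered. Intervals on reads cover counting error only, and replicate pairs differed by more than counting noise (chi-square per gene 2.44 to 5.50).

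All 10 elastic fibre genes were named, and from each list the 3 called genes with the largest change and a mean of at least 100 normalized counts. The members and lists were chosen with earlier results of these data known. Upstream windows were read for 6 members, and those of the other 4 are not reported here. On simulated data with 200 changed genes, limma recovered 200 with 8 false calls among 14065 genes tested, edgeR 200 with 8 among 14204 and DESeq2 194 with 1 among 24709. The changed genes were drawn from genes that were not low, and all other genes were left unchanged. Every gene had the same spread between replicates (5.2%). The real data differ in each of these points, so these rates do not carry over to the calls given here. Alternatives covered the scaling, filter, pseudocount, prior spread, a minimum-fold test, a replicate block, count tests and each library left out.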

Additional observations from a re-analysis of the deposited data

How the results depend on the processing

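The directions of 6 of the 7 tested elastic fibre genes held in every alternative run. Fbln5 was not called in any and changed sign without WT replicate 1 (0.033) and without GαqKO replicate 2 (0.019), and its log2 fold change ran from -0.091 to 0.033 with 1 library left out at a time. Requiring a change past a log2 fold of 1 in the test itself (limma's treat) left 2 elastic fibre genes higher and 1 lower, 8 genes of the 8 lists higher and 3 lower, and 847 of all genes higher and 1027 lower. Requiring 10 normalized counts in every library removed Fbn2, leaving 1 elastic fibre gene higher past the fold, and 831 of all genes higher and 765 lower past it. Without a filter 5 elastic fibre genes were higher (3 past the fold) and 3 lower (2 past it), Mfap5 and Mfap2 being added. With 1 library left out at a time, the counts stayed at 4 higher and 2 lower for the elastic fibre genes (2 and 1 past the fold) and at 17 and 18 for the lists (12 to 13 and 6 to 7 past it). For all genes they ran from 4116 to 4370 higher and 4445 to 4639 lower, and past the fold from 1394 to 1447 and 1464 to 1506. Same-numbered libraries did not deviate together (r = -0.05, -0.15 and -0.06), so no pairing by number was seen. These values cannot show whether same-numbered cultures were handled together. With the replicate block, 4 elastic fibre genes were higher and 2 lower, as without it, and 4324 of all genes were higher and 4638 lower. The summed level ratio ran from 0.496 to 0.510 with 1 library left out and was 0.497 with the longest transcript as length. Depth limits Eln, Mfap2, Mfap5 and the WT level of Fbn2, each resting on few reads.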
